A study of Mus musculus with 9 samples.

Results

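Chondrocytes cultured on a soft gel were compared with chondrocytes in the culture that the labels call normal. Samples were chosen by their titles, which gave 3 soft ECM and 3 normal samples, 6 of the 9 samples in the series. All were primary chondrocytes isolated with collagenase from the knee cartilage of 1-day-old Kunming mice, with no genetic change or drug named for any group. The soft ECM was a polyacrylamide gel of 500 Pa coated with type I collagen. The other 3 samples came from the same kind of gel at 100 kPa (stiff ECM) and are given beside many of the named genes. Every title gives 24 h, while a legend of the article gives a longer time for the array experiment, so the time in culture is in doubt. Neither the labels nor the article name the substrate of the normal culture, so softness, the gel and its coating cannot be told apart in what follows. No source tells whether the 3 replicates were separate cultures or animals, and p-values therefore measure only the spread between these samples, which may be technical.

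A chondrocyte embeds itself in a matrix of type II collagen and aggrecan. When it is isolated and spread on a rigid surface it is known to lose this programme and to resemble a fibroblast, with stress fibres and fibrillar collagens. Cells feel a substrate by pulling on it through integrins, which are tied to actin and myosin at focal adhesions. Polymerized actin frees MRTF, the partner of the transcription factor SRF, and tension moves YAP and TAZ to the nucleus, so the target genes of these factors are widely read as gauges of cell tension.

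RNA was measured on an array with 1 colour, and a value is the intensity of a probe on a linear scale. Sample medians ran from 137 to 150.0 for the soft ECM, 166 to 175 for the stiff ECM and 124 to 179 for normal culture. Genes were read mainly from 9114 bright genes, those whose brightest probe averaged a log2 intensity of 8.3 or more over the 9 samples. In limma, at an adjusted p under 0.05, 54 of them (0.592%) were higher and 484 (5.31%) were lower on the soft ECM than in normal culture. The values as deposited carried a general shift, with a median log2 fold change of -0.13 over the bright genes. After quantile normalization, which gives all samples the same distribution, the median was 0.01, and 302 genes (3.31%) were higher and 238 (2.61%) lower. All 54 of the first higher genes were among the 302, while 235 of the 484 lower genes were called under both scalings. Student's t-test, below the methods' t-test, is the article's general test of 2 groups. Its arrays were tested with an error model that was not used here. On the same values the t-test called 0 higher and 5 lower bright probes after adjustment as deposited and 0 after quantile normalization. At unadjusted p under 0.05 there were 2303 and 2231. With the article's array limit as well, a log2 fold change of at least 1 either way, 13 were higher and 26 lower as deposited. After quantile normalization 24 and 12 were. The counts of each list below are therefore to be read against the shares of all bright genes above. Signs as deposited are to be read against their median, -0.13. A gene said to have risen or fallen passed under both scalings unless a scaling is named. Between the gels, soft minus stiff, 75 bright genes (0.823%) were higher and 183 (2.01%) lower, and these counts rest on the same soft ECM samples. Without stiff ECM replicate 2 all of these calls between the gels ended, those of the genes named below included. The soft ECM samples all lay below the normal samples, with no overlap, in 26.6% of the bright genes as deposited and 13.6% after quantile normalization, and all above them in 3.62% and 18.1%.

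**Figure D1:**
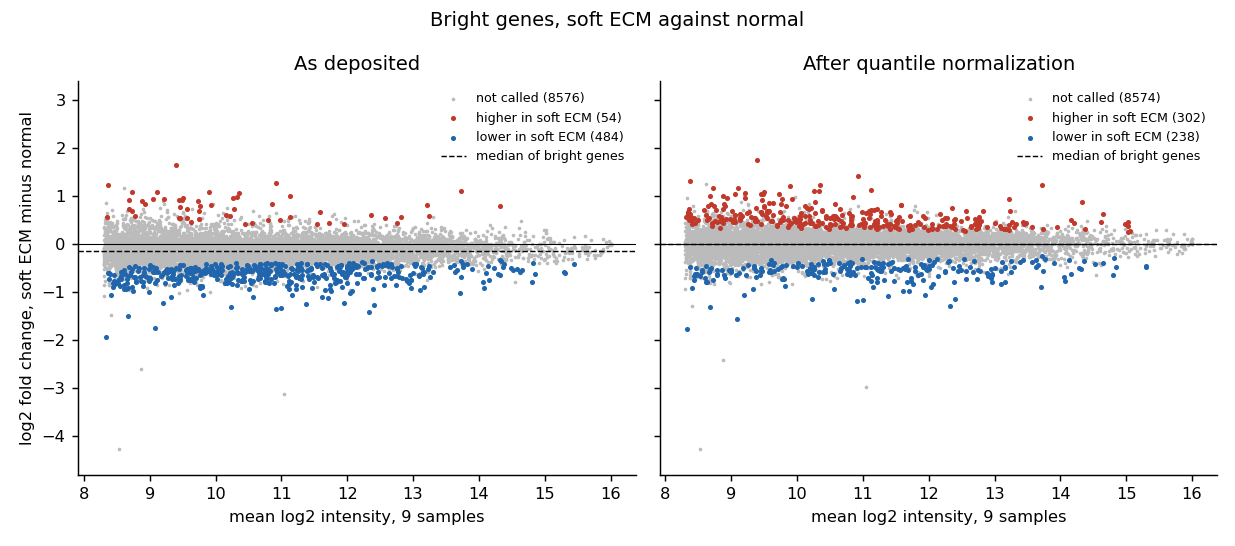
Log2 fold change, soft ECM minus normal, of each of the 9114 bright genes against its mean log2 intensity over the 9 samples, from the deposited values and after quantile normalization. Coloured points passed an adjusted p under 0.05 in limma (54 higher and 484 lower as deposited, 302 and 238 after quantile normalization), and the dashed line is the median, -0.13 and 0.01.

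Marker genes were read to describe the cells. Of 10 chondrocyte markers 7 were bright, and Matn1, Matn3 and Cnmd were dim. The summed intensity of the 10 was 6878 to 8235 on the soft ECM and 15070 to 17220 in normal culture, so the groups did not overlap. Col2a1, with values given below, made a large part of these sums, and limma called 2 of the 7 bright markers lower under each scaling. Of 7 fibroblast markers 6 were bright, Col1a1 being dim, with sums of 142200 to 151600 on the soft ECM and 158200 to 183400 in normal culture, including probes near the top of the scale. Of 8 skeletal muscle markers 7 were bright, with sums of 88080 to 96780 on the soft ECM and 96280 to 115600 in normal culture, so RNA of muscle genes was present in every sample. The fibroblast and the muscle sums both exceeded the chondrocyte sums in each group. Intensities of different probes do not measure shares of cells, so the markers do not settle that the samples were mainly chondrocytes. Of 5 smooth muscle markers Acta2 and Des were bright, with sums over the 4 tested of 21610 to 27030 on the soft ECM and 34750 to 37600 in normal culture. Of 5 adipocyte markers Fabp4 alone was bright, with sums of 19600 to 23010 on the soft ECM and 15140 to 19070 in normal culture, and it was called higher after quantile normalization. In both types the groups did not overlap, while those of the 5 neutrophil and the 5 keratinocyte markers did. All 5 endothelial markers were dim. Of 6 macrophage markers Cd14, Cd68 and Itgam were bright while Adgre1, Csf1r and Lyz2 were not, and the sums of the 5 tested were 6500 to 7499 on the soft ECM and 7157 to 8946 in normal culture. In such bulk samples fewer cells of a type and less RNA per cell cannot be told apart, and the part of such markers in the results below was not tested.

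Cartilage collagens were lower on the soft ECM than in normal culture. Col2a1, which encodes the main collagen of cartilage, had intensities of 3568, 3963 and 3304 in soft ECM cultures, 4092, 3505 and 4069 in stiff ECM cultures and 11070.0, 9229.6 and 8719.6 in normal cultures. The gels lay together, well under all 3 normal samples. Col2a1 fell (log2 fold change -1.42, SE 0.12, adjusted p = 0.001), and normal culture exceeded the soft ECM 2.67-fold. Col11a1, for a chain of the collagen that nucleates cartilage fibrils, had 592, 967 and 837 in soft ECM cultures, 1109.9, 1065 and 1282 in stiff ECM cultures and 1695, 2002 and 2165.7 in normal cultures and fell as well (log2 fold change -1.31, SE 0.17, adjusted p = 0.0059). These were the 2 that passed among 11 bright chondrocyte matrix genes, where 5.31% and 2.61% of all bright genes were lower. The median log2 fold change of the 11 was -0.27 as deposited and -0.13 after quantile normalization. Acan, which encodes aggrecan, had 497, 431 and 662 in soft ECM cultures, 889, 644 and 432 in stiff ECM cultures and 1598, 694 and 1032 in normal cultures, with the groups apart but an adjusted p of 0.1. Sox9, for the factor that drives both genes, had 625, 621 and 736 on the soft ECM and 628, 730.3 and 815 in normal culture, which overlapped (log2 fold change -0.13, SE 0.13, adjusted p = 0.64). Leaving out any 1 sample kept the call of Col2a1 under both scalings, and that of Col11a1 ended without normal replicate 2 after quantile normalization (adjusted p = 0.057).

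Fibrillar matrix genes were lower on the soft ECM too. Of 24 bright genes for fibroblast collagens and associated matrix, 10 were lower as deposited and 9 after quantile normalization. The shares among all bright genes were 5.31% and 2.61%, and the medians of the 24 were -0.40 and -0.26. Fn1, which encodes fibronectin, had 25489, 25677 and 23173 in soft ECM cultures, 26964, 27712 and 27505 in stiff ECM cultures and 37386, 38154 and 38229 in normal cultures. Each gel sample lay under each normal sample, and the soft ECM samples lay lowest. Fn1 fell by 0.62 on the log2 scale (SE 0.08, adjusted p = 0.005). Col12a1, for a collagen of fibril surfaces, had 21826, 22269.5 and 24987 in soft ECM cultures, 28729.5, 25778 and 23271 in stiff ECM cultures and 41788, 38211 and 38211 in normal cultures (log2 fold change -0.78, SE 0.10, adjusted p = 0.0057). Tgfbi, for a matrix protein induced by TGF-beta, had 14998, 12447 and 12349 in soft ECM cultures, 9281, 8419 and 9299 in stiff ECM cultures and 19898, 21094 and 22657 in normal cultures. It fell against normal culture (log2 fold change -0.68, SE 0.10, adjusted p = 0.0092) and lay above the stiff ECM (soft minus stiff 0.56, SE 0.10, adjusted p = 0.028, a call that ended without any 1 of the 6 gel samples, with an adjusted p of up to 0.17). Other members that fell were Col1a2 (-0.62), Col5a1 (-0.74), Col6a2 (-0.67), the proteoglycan gene Vcan (-0.66) and Thy1 (-0.70), for a surface protein of fibroblasts. Fn1, Col12a1 and Tgfbi kept their calls under both scalings whichever sample was left out. The deposited count of 10 became 6, 7 and 5 when soft ECM replicate 1, 2 or 3 was left out and 9, 4 and 5 when normal replicate 1, 2 or 3 was. The 9 after quantile normalization became 3 to 7, with 3 without soft ECM replicate 1 or normal replicate 1 or 2, and the calls of Col1a2, Col5a1, Col6a2, Vcan and Thy1 each ended in 4 or 5 of the 6 cases.

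Enzymes that modify and crosslink collagen were lower in part. Of 21 bright genes 9 were lower as deposited and 7 after quantile normalization (5.31% and 2.61% of all bright genes), with medians of -0.44 and -0.32. Lox, for the lysyl oxidase that starts collagen crosslinks, had 28362, 33404 and 33965 in soft ECM cultures, 42231, 46285 and 40666 in stiff ECM cultures and 46871, 46739 and 51536 in normal cultures. The soft ECM lay lowest and the stiff ECM in between (log2 fold change -0.60, SE 0.10, adjusted p = 0.012). P4ha3, for a subunit of a prolyl hydroxylase of collagen, had 1513, 1730.2 and 1524 on the soft ECM and 2521, 2883 and 2958 in normal culture and fell by 0.81 (SE 0.10). P4ha1 (-0.56), the lysyl oxidase gene Loxl2 (-0.68) and the lysyl hydroxylase gene Plod3 (-0.44) fell as well. The count of 9 became 4, 5 and 4 when soft ECM replicate 1, 2 or 3 was left out and 8, 3 and 5 when normal replicate 1, 2 or 3 was. The 7 after quantile normalization became 0 to 7, and all ended without normal replicate 2, those of Lox (adjusted p up to 0.087) and P4ha3 (0.052) included. Of 7 bright small leucine-rich proteoglycan genes, Fmod and Prelp fell. Fmod, for fibromodulin, which binds and shapes collagen fibrils, had 2108, 1795 and 1859 in soft ECM cultures, 1922, 1829.8 and 2028 in stiff ECM cultures and 3838, 3449 and 3752 in normal cultures, and normal culture exceeded the soft ECM 1.92-fold (log2 fold change -0.94, SE 0.10, adjusted p = 0.0031). Prelp, for a proteoglycan that links collagen to basement membrane, had 13425, 13009 and 14578 on the soft ECM and 27183, 22325 and 27254 in normal culture (log2 fold change -0.90, SE 0.14, adjusted p = 0.012). Fmod kept its call under both scalings in every case, and Prelp lost that after quantile normalization without soft ECM replicate 1 or normal replicate 1 (adjusted p up to 0.055).

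**Figure D2:**
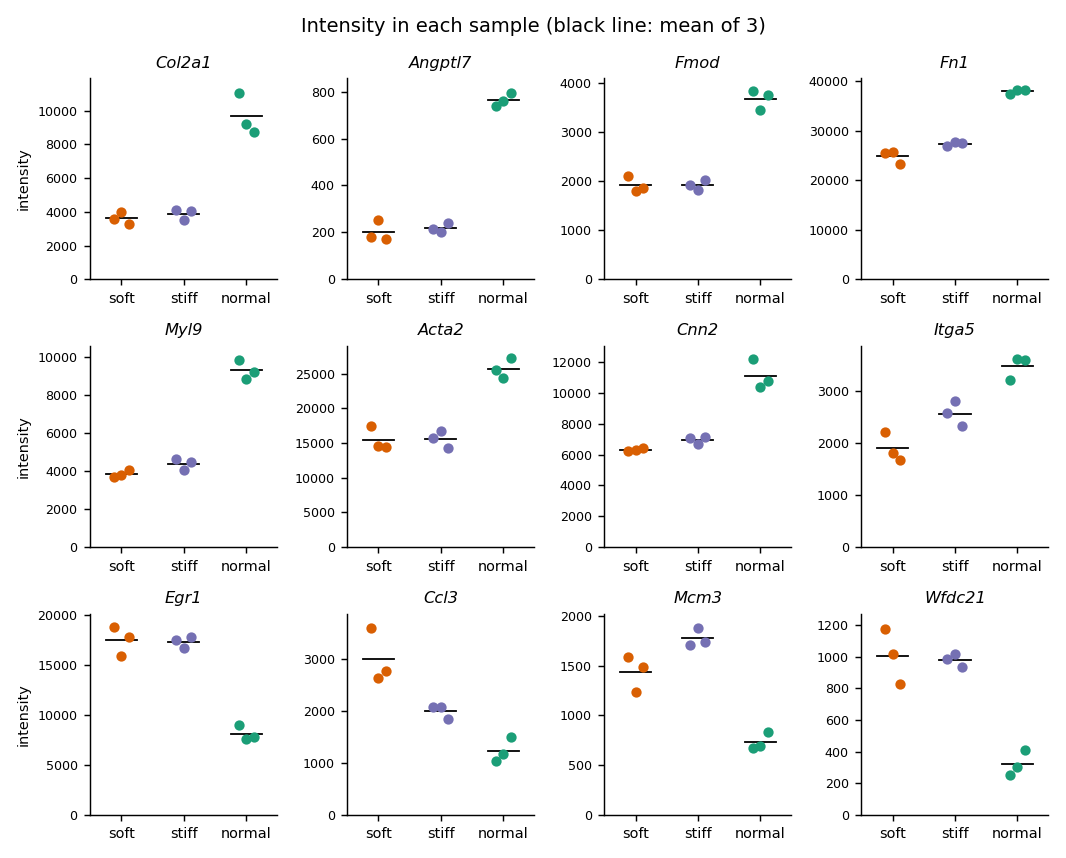
Intensity of 12 genes in each of the 3 soft ECM, 3 stiff ECM and 3 normal samples, with the scale of each panel set to its gene and a line at the mean of 3 samples. Genes of the matrix and of contraction lie lower on the soft ECM than in normal culture, and Egr1, Ccl3, Mcm3 and Wfdc21 lie higher.

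Genes of cell adhesion were lower on the soft ECM than in normal culture. Of 21 bright focal adhesion genes all had a negative log2 fold change as deposited and 20 had one after quantile normalization, with medians of -0.40 and -0.29. Under each scaling 6 passed as lower, where 5.31% of all bright genes did as deposited and 2.61% after quantile normalization. Pdlim5, for a scaffold that binds actinin, had 2712, 2961 and 3238 in soft ECM cultures, 3997, 3350.0 and 3358 in stiff ECM cultures and 5451, 4792 and 6359 in normal cultures (log2 fold change -0.89, SE 0.12, adjusted p = 0.0072). Vcl, for vinculin, which couples integrins to actin under load, had 5968, 6085 and 7649 on the soft ECM and 11013, 9453 and 12546 in normal culture, and Zyx, for zyxin, which gathers at strained actin fibres, had 2179.9, 1846 and 1606 on the soft ECM and 2961, 3106 and 3595 in normal culture. Both genes fell, by 0.74 and 0.78 on the log2 scale. The count of 6 became 4, 4 and 3 when soft ECM replicate 1, 2 or 3 was left out and 4, 1 and 3 when normal replicate 1, 2 or 3 was, and after quantile normalization it became 1 to 3, with 1 without normal replicate 1 or 2. Pdlim5 kept its call under both scalings in all 6 cases.

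Of 11 bright integrin genes 2 fell, Itga5 and Itga11, where 5.31% and 2.61% of all bright genes were lower. Itga5, for the chain that pairs with beta 1 to bind fibronectin, had 2209, 1815 and 1663 in soft ECM cultures, 2576, 2797 and 2316 in stiff ECM cultures and 3206, 3611 and 3587 in normal cultures. The soft ECM samples lay lowest, the stiff ECM samples between, and the normal samples highest, with no overlap (log2 fold change -0.88, SE 0.12, adjusted p = 0.007). Its soft minus stiff difference did not pass (-0.44, SE 0.12, adjusted p = 0.086). Itga11, for a collagen-binding chain, had 5319, 8377 and 7088 on the soft ECM and 14045, 11167 and 13194 in normal culture (log2 fold change -0.90, SE 0.18, adjusted p = 0.023), and that call ended under each scaling in 5 of the 6 cases in which a sample was left out, all but soft ECM replicate 2. Itgb1, for the shared beta 1 chain that the study blocked, had 18354, 18099.8 and 22519.5 in soft ECM cultures, 23487, 22321 and 18901 in stiff ECM cultures and 21983, 22489.6 and 30222 in normal cultures and did not pass (log2 fold change -0.33, SE 0.14, adjusted p = 0.22).

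Contractile genes of the smooth muscle type, targets of SRF and MRTF, were lower on the soft ECM than in normal culture. Of 15 bright members all had a negative log2 fold change as deposited and 13 had one after quantile normalization. As deposited 7 passed and after quantile normalization 5 (5.31% and 2.61% of all bright genes were lower), with medians of -0.36 and -0.20. Myl9, for a regulatory light chain of myosin, had 3703, 3823 and 4051 in soft ECM cultures, 4662, 4036 and 4470.4 in stiff ECM cultures and 9875, 8858 and 9239 in normal cultures. The replicates of each group lay close together, and the normal samples stood above both gels. Myl9 fell by 1.27 on the log2 scale (SE 0.09, adjusted p = 0.0007). Acta2, which encodes the actin of smooth muscle and myofibroblasts, had 17408, 14628 and 14360.2 in soft ECM cultures, 15666, 16759.8 and 14253 in stiff ECM cultures and 25561, 24311 and 27177 in normal cultures (log2 fold change -0.74, SE 0.10, adjusted p = 0.007). Cnn2, for an actin-binding calponin, had 6240.1, 6268 and 6433 in soft ECM cultures, 7107, 6682 and 7118 in stiff ECM cultures and 12236, 10386 and 10786 in normal cultures (log2 fold change -0.82, SE 0.09, adjusted p = 0.0034). Csrp1 (-0.80), for a LIM protein of actin fibres, and Tpm1 (-0.53), for a tropomyosin, fell as well. Tagln, for transgelin, is a dim member with 88.2, 113 and 86.3 on the soft ECM and 214, 203 and 243 in normal culture (log2 fold change -1.20, SE 0.16, adjusted p = 0.0059). Myl9, Acta2, Cnn2 and Tagln kept their calls under both scalings whichever sample was left out. The count of 7 became 4, 4 and 5 when soft ECM replicate 1, 2 or 3 was left out and 6, 4 and 4 when normal replicate 1, 2 or 3 was. The 5 after quantile normalization became 3 or 4, and the calls of Csrp1 and Tpm1 ended in 5 and 6 of the 6 cases.

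The CArG box is the element that SRF binds. Only its strict form was searched, which is CC, then 6 bases of A or T, then GG. It was sought on both strands in the 250 bases before each start site in RefSeq (GRCm38.p6). There 439 of 27025 genes (1.62%) held it. Of the 15 bright genes in this list 6 held it. Of these Myl9 and Cnn2 were called in every case above, Fhl1 and Fhl2 as deposited only, and Ldb3 and Srf under neither scaling. Acta2, Csrp1 and Tpm1, called under both scalings, held no match to the strict form in this window. Forms that differ from it by a base, such as CCCTATATGG in the Acta2 window, were not searched. Among bright genes with a window, 0 of 18 YAP and TAZ targets, 1 of 15 immediate early genes and 2 of 18 focal adhesion genes held it. The windows of Myl9 (chr2:156775214-156775463, + strand) and Cnn2 (chr10:79988350-79988599, + strand) are shown with the box in capitals, starting 161 and 56 bases before the start site. A match is a sequence only, and binding was not measured here.
Myl9: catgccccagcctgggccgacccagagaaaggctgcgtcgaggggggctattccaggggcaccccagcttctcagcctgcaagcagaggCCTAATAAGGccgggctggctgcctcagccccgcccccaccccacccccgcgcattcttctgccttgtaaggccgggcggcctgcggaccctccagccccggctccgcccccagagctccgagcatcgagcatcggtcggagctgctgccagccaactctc
Cnn2: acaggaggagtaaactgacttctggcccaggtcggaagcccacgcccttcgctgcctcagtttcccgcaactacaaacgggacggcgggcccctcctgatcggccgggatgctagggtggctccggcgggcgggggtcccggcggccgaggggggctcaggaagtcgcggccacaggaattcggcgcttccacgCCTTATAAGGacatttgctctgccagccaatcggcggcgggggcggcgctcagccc

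Of 24 bright genes for actin, myosin and their partners outside muscle 5 were lower as deposited and 3 after quantile normalization. The shares among all bright genes were 5.31% and 2.61%, and the medians of the 24 were -0.26 and -0.13. Myh9, for the heavy chain of non-muscle myosin IIA, which drives cell contraction, had 22237, 21263 and 22028 in soft ECM cultures, 24986, 25478 and 23281 in stiff ECM cultures and 31685, 30710.5 and 32198 in normal cultures, with narrow groups and no overlap between the soft ECM and normal samples (log2 fold change -0.53, SE 0.08, adjusted p = 0.0086). Flna and Flnc, for filamins that crosslink actin, fell by 0.53 and 0.48. Myh9 kept its call in every leave-out under both scalings. The count of 5 became 2, 2 and 1 when soft ECM replicate 1, 2 or 3 was left out and 2, 1 and 2 when normal replicate 1, 2 or 3 was. The 3 after quantile normalization became 1 to 3, with 1 without soft ECM replicate 1 or 3 or normal replicate 1 or 2. The call of Flna ended in all 6 cases as deposited and in 5 after quantile normalization, and that of Flnc in 3 and 5.

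**Figure D3:**
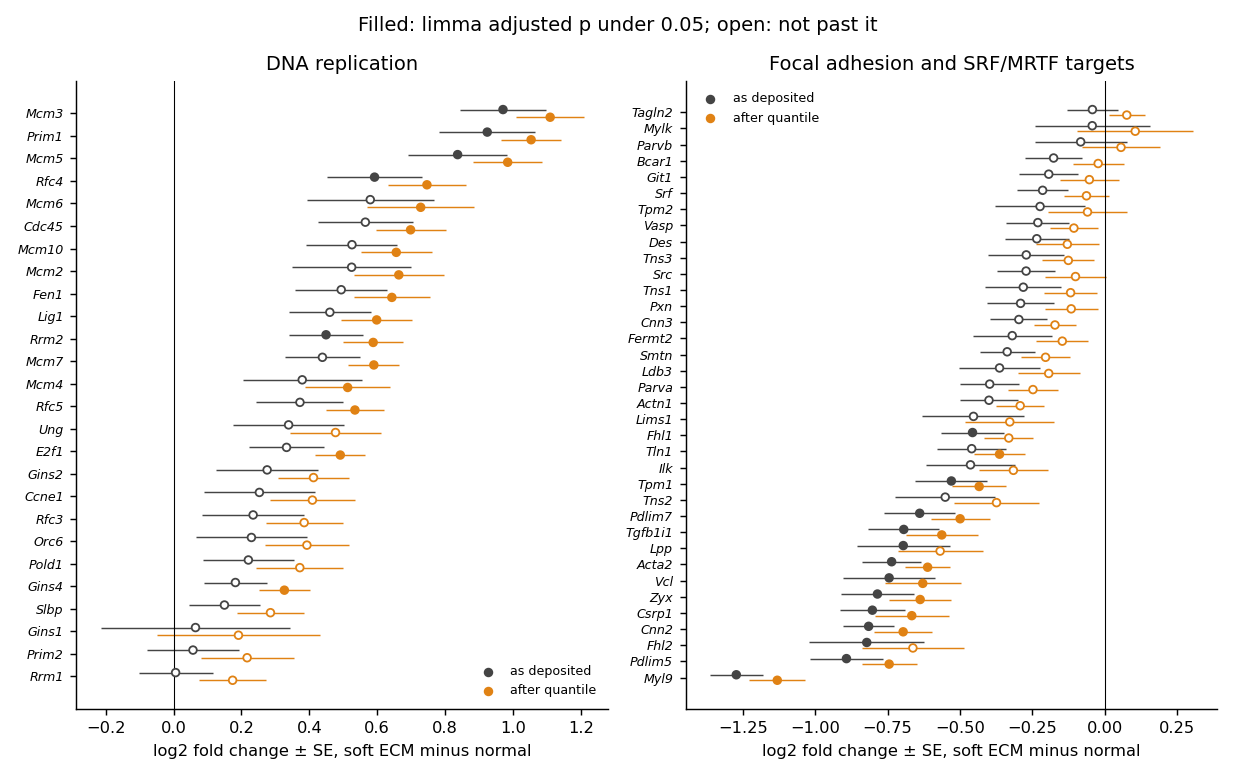
Log2 fold change, soft ECM minus normal, with its SE, of the bright members of 2 gene groups, as deposited and after quantile normalization, with filled symbols at an adjusted p under 0.05. The 26 DNA replication genes all lie above 0, and the focal adhesion and SRF and MRTF genes lie below it as deposited.

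Target genes of YAP and TAZ fell in part. Of 22 bright members 5 were lower under both scalings (Amotl2, Ccn1, Ccn2, Crim1 and Gadd45b), with medians of -0.33 and -0.19. The shares among all bright genes were 5.31% as deposited and 2.61% after quantile normalization. Ccn1, for a secreted matricellular protein, had 4662, 5012 and 5246 in soft ECM cultures, 6956, 6687 and 7735 in stiff ECM cultures and 9571, 9586 and 7936 in normal cultures. The soft ECM samples lay lowest and the stiff ECM samples between them and normal culture, with no overlap (log2 fold change -0.86, SE 0.10, adjusted p = 0.0049). Its soft minus stiff difference passed as well (-0.52, SE 0.10, adjusted p = 0.038), a call that ended without any 1 of the 6 gel samples (adjusted p up to 0.15). Ccn2, for connective tissue growth factor, had 13153, 13448 and 17223 on the soft ECM and 21938, 22902 and 31327 in normal culture (log2 fold change -0.79, SE 0.15, adjusted p = 0.02), and Amotl2, for an angiomotin that holds YAP back, had 5598, 5894 and 5483 on the soft ECM and 9769, 8803 and 8702 in normal culture (log2 fold change -0.68, SE 0.09, adjusted p = 0.0057). The deposited count of 5 became 3, 3 and 3 when soft ECM replicate 1, 2 or 3 was left out and 6, 2 and 4 when normal replicate 1, 2 or 3 was. The 5 after quantile normalization became 0 to 4, and all ended without soft ECM replicate 1 or normal replicate 2. Ccn1 and Amotl2 kept their deposited calls in every case, and each lost that after quantile normalization in 4 of the 6 (adjusted p up to 0.088 and 0.072). Among 10 bright Kruppel-like factors, zinc finger regulators of transcription, Klf4 and Klf6 fell, against the same shares of all bright genes. Klf4 had 3041, 2919.9 and 2658 in soft ECM cultures, 4579, 5182 and 4631 in stiff ECM cultures and 4619, 4467 and 4655 in normal cultures, with the soft ECM below both other groups (soft minus stiff -0.74, SE 0.09, adjusted p = 0.012, and 0.096 without stiff ECM replicate 2), and Klf6 had 7495, 7709 and 8363 on the soft ECM and 12573, 10808 and 11858 in normal culture. The deposited count of 2 became 1 to 3, with 1 without soft ECM replicate 1 or 2, where the call of Klf6 ended. After quantile normalization both calls ended without soft ECM replicate 1 or 3 or normal replicate 1 or 2 (adjusted p up to 0.077 for Klf4 and 0.1 for Klf6).

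Immediate early genes, which serum, stretch and adhesion switch on within minutes to hours, split. Egr1, for a zinc finger factor of this class, had 18790.3, 15924 and 17848 in soft ECM cultures, 17532, 16712 and 17839 in stiff ECM cultures and 8957, 7594 and 7826 in normal cultures. Both gels lay far above normal culture, which the soft ECM exceeded 2.16-fold (log2 fold change 1.11, SE 0.10, adjusted p = 0.0011). Fos, for a subunit of AP-1, had 3453, 2807 and 3607 in soft ECM cultures, 4533, 4612 and 3762 in stiff ECM cultures and 2208, 1877 and 2093 in normal cultures and rose as well (log2 fold change 0.67, SE 0.12, adjusted p = 0.019), and Egr2, dim but tested, had 286, 223 and 228 on the soft ECM and 116, 142 and 161 in normal culture (log2 fold change 0.82, SE 0.16, adjusted p = 0.024), with an adjusted p over 0.05 without any 1 soft ECM sample or normal replicate 2. Ier5, for a regulator of the heat shock factor, had 1112, 1158 and 1089 in soft ECM cultures, 1264, 1206 and 1021 in stiff ECM cultures and 1796, 1786 and 2103 in normal cultures and fell (log2 fold change -0.76, SE 0.11, adjusted p = 0.0096). Dusp1, for a phosphatase that turns off MAP kinases, fell by 0.51 (SE 0.11). Of 22 bright members 2 were higher and 4 lower as deposited, and 3 were higher and 3 lower after quantile normalization. The shares among all bright genes were 0.592% and 5.31% as deposited, and 3.31% and 2.61% after quantile normalization. Egr1 and Ier5 kept their calls under both scalings in every leave-out, and that of Fos as deposited ended without soft ECM replicate 1 or 3 or normal replicate 2 (adjusted p up to 0.083). The higher count became 1, 2 and 1 when soft ECM replicate 1, 2 or 3 was left out and 2, 1 and 2 when normal replicate 1, 2 or 3 was, and the lower count 3, 2 and 2, and 4, 2 and 2. After quantile normalization the higher count became 2 or 3 and the lower count 1 or 2. The call of Dusp1 ended in all 6 cases as deposited and in 5 after quantile normalization.

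DNA replication genes were higher on the soft ECM than in normal culture. All 26 bright members had a positive log2 fold change under both scalings, with medians of 0.38 and 0.52. As deposited 5 passed (Mcm3, Mcm5, Prim1, Rfc4 and Rrm2) and after quantile normalization 16, against 0.592% and 3.31% of all bright genes. The Mcm proteins form the helicase that opens DNA at origins. Mcm3 had 1589, 1230.5 and 1488 in soft ECM cultures, 1710.4, 1879 and 1737 in stiff ECM cultures and 673, 692 and 831 in normal cultures. Both gels lay above all normal samples (log2 fold change 0.97, SE 0.13, adjusted p = 0.0058). Mcm5 had 2618, 1898 and 2220.3 in soft ECM cultures, 2434, 2350.0 and 2064 in stiff ECM cultures and 1179, 1102 and 1490.2 in normal cultures (log2 fold change 0.84, SE 0.15, adjusted p = 0.016), and Prim1, for the primase subunit that starts new strands, had 867, 761 and 936 in soft ECM cultures, 983, 885 and 802 in stiff ECM cultures and 414, 408 and 535 in normal cultures (log2 fold change 0.92, SE 0.14, adjusted p = 0.0099). Rfc4, of the clamp loader, and Rrm2, of the enzyme that makes deoxynucleotides, rose by 0.59 and 0.45. After quantile normalization Mcm2 (0.66), Mcm6 (0.73), Mcm7 (0.59), E2f1 (0.49), for a factor that drives S phase genes, and Cdc45 (0.70), for a helicase cofactor, passed too, while as deposited they did not (adjusted p = 0.13, 0.11, 0.054, 0.13 and 0.053). Mcm3 kept its call in every leave-out. The deposited count of 5 became 2, 3 and 2 when soft ECM replicate 1, 2 or 3 was left out and 3, 1 and 5 when normal replicate 1, 2 or 3 was, and that of 16 became as low as 9, without normal replicate 1. After quantile normalization the call of Mcm2 ended in 4 of the 6 cases (adjusted p up to 0.093) and that of Mcm6 in 5 (up to 0.12), while Mcm7, E2f1 and Cdc45 kept theirs. Between the gels limma called none of the 26 (2 lower at unadjusted p under 0.05), with a median of -0.05.

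Genes of the later cell cycle gave 1 call, under 1 scaling. Of 21 bright mitosis and G2/M genes limma called none as deposited (1 higher and 2 lower at unadjusted p under 0.05, and 0 by the methods' t-test after adjustment, with 1 at unadjusted p), and 10 lay above and 11 below 0. After quantile normalization Ccna2 alone passed, for a cyclin of S phase and G2, with 746, 905 and 925 on the soft ECM and 435, 523 and 694 in normal culture (0.78, adjusted p = 0.0098). Whether replication and mitosis genes differ in response was not tested.

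E2F factors bind a short element in many replication genes. Its forms TTTCCCGC, TTTGGCGC, TTTCGCGC and TTTGCCGC were searched on both strands in the 250 bases before each start site, and 583 of 27025 genes (2.16%) held at least 1 there. Of 21 bright replication genes with a window 4 did (Mcm5, Mcm6, Mcm7 and Rfc3). The windows of Mcm5 (chr8:75109259-75109508, + strand), which passed under both scalings, and Mcm6 (chr1:128359706-128359955, - strand), which passed after quantile normalization, are shown with the matches in capitals, where matches of the 2 strands can overlap. Mcm3, Prim1, Rfc4 and Rrm2, which passed under both scalings too, held no match in their windows, and neither did Mcm2. Rfc3, which held a match, passed under neither scaling. The lack of a match says only that these letters are not there.
Mcm5: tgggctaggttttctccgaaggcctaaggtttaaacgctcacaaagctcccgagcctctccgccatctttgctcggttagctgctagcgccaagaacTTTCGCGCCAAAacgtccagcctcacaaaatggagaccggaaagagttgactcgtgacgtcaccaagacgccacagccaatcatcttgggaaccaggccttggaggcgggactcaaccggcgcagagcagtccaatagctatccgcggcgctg
Mcm6: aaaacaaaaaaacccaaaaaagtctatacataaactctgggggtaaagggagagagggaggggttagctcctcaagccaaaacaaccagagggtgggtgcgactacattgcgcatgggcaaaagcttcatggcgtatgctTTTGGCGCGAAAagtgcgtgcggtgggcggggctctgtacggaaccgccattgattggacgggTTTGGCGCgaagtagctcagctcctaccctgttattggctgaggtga

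Chemokine genes were among those higher on the soft ECM. Ccl3, for a chemokine that draws monocytes, had 3588, 2638 and 2770.4 in soft ECM cultures, 2080.4, 2070.1 and 1842 in stiff ECM cultures and 1030.0, 1175 and 1507 in normal cultures. The soft ECM samples lay highest, then the stiff ECM, then normal culture (log2 fold change 1.28, SE 0.16, adjusted p = 0.0049). Cxcl12, for a chemokine made by stromal cells, had 23752, 27724 and 20178 in soft ECM cultures, 25642, 25294 and 28538 in stiff ECM cultures and 10969.8, 14376 and 16287 in normal cultures (log2 fold change 0.79, SE 0.15, adjusted p = 0.022), and Ccl11, for eotaxin, rose by 0.58. Ptgs2, for the inducible enzyme of prostaglandin synthesis, fell, with 4456, 7615 and 7200.2 in soft ECM cultures, 11664, 10908 and 9463 in stiff ECM cultures and 12341, 10874 and 11536 in normal cultures (log2 fold change -0.89, SE 0.18, adjusted p = 0.024). Il1a and Il1b, for the interleukin 1 cytokines, passed as higher after quantile normalization (0.84 and 0.68) and not as deposited (adjusted p = 0.072 and 0.093). Of 27 bright members 3 were higher and 2 lower as deposited, and 7 higher and 1 lower after quantile normalization. The lower calls are near the share among all bright genes (5.31% as deposited and 2.61% after quantile normalization). The deposited higher count became 1, 2 and 2 when soft ECM replicate 1, 2 or 3 was left out and 3, 1 and 3 when normal replicate 1, 2 or 3 was, while both lower calls ended without any 1 of the normal replicates (adjusted p up to 0.071 for Ptgs2). The 7 after quantile normalization became 2 to 6, with 2 without soft ECM replicate 1 or normal replicate 1 or 2, where the calls of Il1a and Il1b ended, and that of Ptgs2 ended in 5 of the 6 cases. Ccl3 kept its call under both scalings in every case. Of 25 bright matrix protease genes and inhibitors 1 was higher and 2 lower as deposited, and 2 were higher and 1 lower after quantile normalization. The lower calls are near the shares above, while 0.592% and 3.31% of all bright genes were higher. Mmp23 was lower as deposited only, and Mmp19 was higher after quantile normalization only. Adamts15, for a protease of aggrecan and versican, had 696, 522 and 541 on the soft ECM and 235, 349 and 369 in normal culture and rose (log2 fold change 0.90, SE 0.19, adjusted p = 0.028), and Mmp3, for stromelysin, fell by 0.39. As deposited both calls ended without any 1 soft ECM sample or normal replicate 2. After quantile normalization that of Adamts15 held in every case and that of Mmp3 in none.

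Some stress genes were lower on the soft ECM, in calls that rest on single samples. The factors ATF4 and CHOP act when amino acids run short or proteins misfold. Of 14 bright members of their programme all had a negative log2 fold change as deposited and 13 had one after quantile normalization. Limma called 5 and 3 lower, against 5.31% and 2.61% of all bright genes, at medians of -0.35 and -0.24. Trib3, for a pseudokinase that damps this programme, had 2233, 3981 and 2234 in soft ECM cultures, 1823, 1788 and 2254 in stiff ECM cultures and 6045, 5825 and 5637 in normal cultures (log2 fold change -1.11, SE 0.20, adjusted p = 0.017). Chac1, for an enzyme that degrades glutathione, had 3351, 5029 and 4645 in soft ECM cultures, 5685, 4439 and 3412 in stiff ECM cultures and 9374, 6501 and 8850.5 in normal cultures (log2 fold change -0.93, SE 0.21, adjusted p = 0.038). In both genes 2 of the soft ECM samples lay within the range of the stiff ECM samples. Vldlr, for a lipoprotein receptor, fell by 0.77, and Ddit3, which encodes CHOP, was lower as deposited (log2 fold change -0.62, SE 0.12, adjusted p = 0.021) but not after quantile normalization (adjusted p = 0.057). As deposited the call of Chac1 ended without any 1 of the 6 samples, that of Trib3 without soft ECM replicate 1 or 3 or normal replicate 2, and that of Vldlr without soft ECM replicate 1 or normal replicate 2 or 3. All 5 deposited calls ended without soft ECM replicate 1 or normal replicate 2, and all 3 after quantile normalization without any 1 of the normal replicates (adjusted p up to 0.15 for Trib3 and 0.16 for Chac1). Of 26 bright genes of amino acid supply 5 were lower as deposited and 2 after quantile normalization, against the same shares. Psph, of serine synthesis, and Eprs, for a tRNA synthetase, fell by 0.55 and 0.60, and as deposited the call of Eprs ended without normal replicate 2 (adjusted p = 0.054). After quantile normalization both calls ended without soft ECM replicate 3 or normal replicate 1 or 2 (adjusted p up to 0.09 for Psph and 0.081 for Eprs).

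The element TTGCATCA, a joint site of ATF4 and C/EBP factors, lay in the same upstream window of 248 of 27025 genes (0.918%), searched on both strands. Of 12 bright genes of the ATF4 and CHOP list with a window 4 held it (Chac1, Herpud1, Nupr1 and Vldlr). The windows of Trib3 and Ddit3 held none. Of 19 bright genes of amino acid supply with a window 3 held it (Got1, Slc7a11 and Tars), and limma called none of these. Chac1 was called under both scalings with all samples, while leaving out any 1 sample ended its deposited call. Its window (chr2:119350992-119351241, + strand) is shown with the element in capitals, 193 bases before the start site.
Chac1: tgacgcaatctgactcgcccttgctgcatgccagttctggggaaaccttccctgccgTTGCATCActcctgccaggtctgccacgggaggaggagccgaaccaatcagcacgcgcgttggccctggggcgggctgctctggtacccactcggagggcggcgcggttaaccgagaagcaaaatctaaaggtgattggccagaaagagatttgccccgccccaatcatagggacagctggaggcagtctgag

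Few hypoxia and glycolysis genes passed. Of 26 bright members 4 were lower as deposited (Aldoc, Car9, Ero1a and Vegfa) and 1 after quantile normalization, Car9. The shares among all bright genes were 5.31% and 2.61%, and the medians of the 26 were -0.17 and -0.05. As deposited 22 had a negative and 4 a positive log2 fold change, and after quantile normalization 16 and 9 did. Car9, for a carbonic anhydrase at the surface of hypoxic cells, had 17731, 16229 and 17517 in soft ECM cultures, 19014, 17859.7 and 19020.0 in stiff ECM cultures and 26452, 26267 and 27313 in normal cultures. The gels lay close together and under every normal sample (log2 fold change -0.64, SE 0.08, adjusted p = 0.0049), and the call held in every leave-out. Vegfa, for the vascular growth factor, had 17205, 20552 and 17670.0 in soft ECM cultures, 25253, 28277 and 24214 in stiff ECM cultures and 25263, 25245 and 26775 in normal cultures. Only the soft ECM stood apart from the other groups (log2 fold change -0.48, SE 0.10, adjusted p = 0.024), and the change did not pass after quantile normalization (adjusted p = 0.061). Its soft minus stiff difference was close in size (-0.49, SE 0.10, adjusted p = 0.038, and up to 0.19 without each gel sample but soft ECM replicate 2). The count of 4 became 2, 4 and 1 when soft ECM replicate 1, 2 or 3 was left out and 3, 1 and 2 when normal replicate 1, 2 or 3 was.

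**Figure D4:**
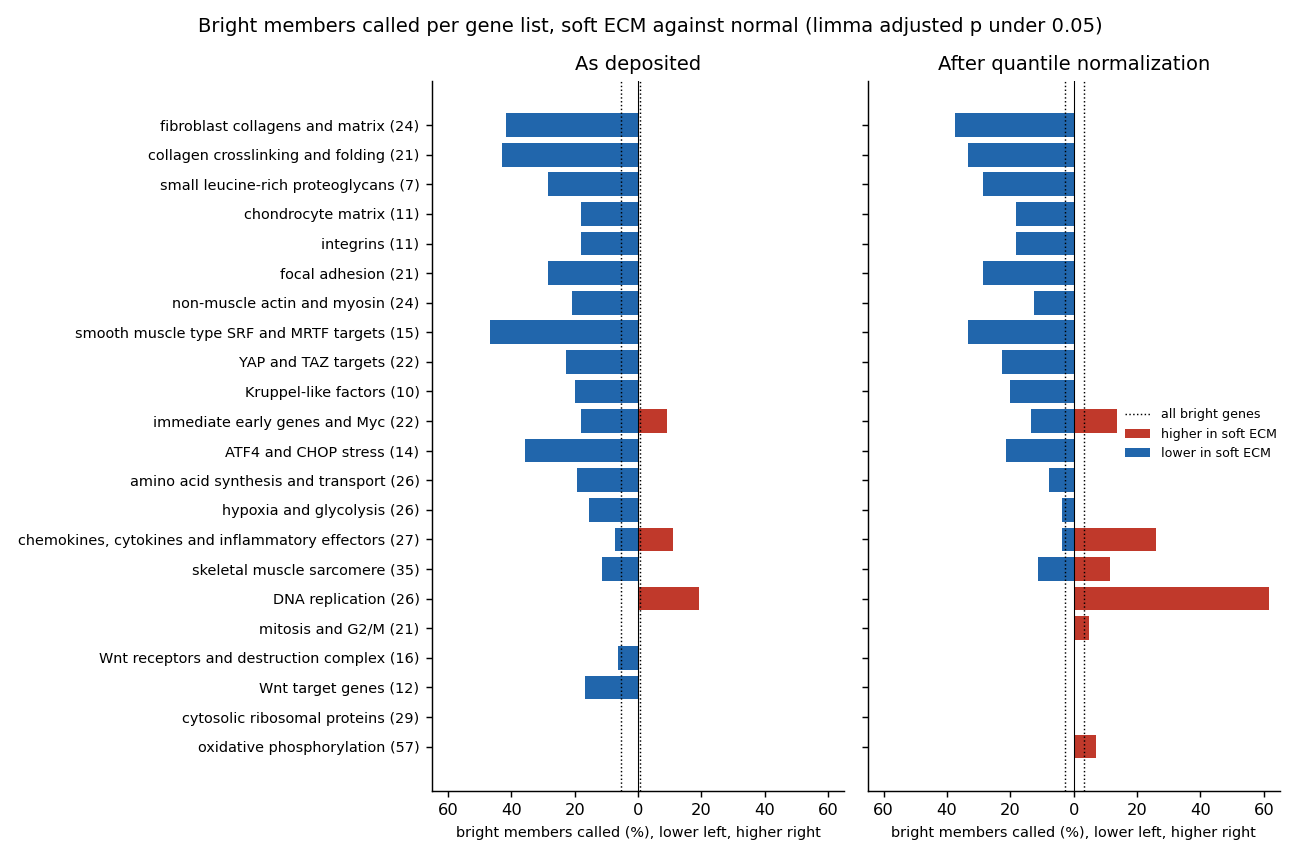
Percent of the bright members of each gene list that passed an adjusted p under 0.05 in limma as lower or higher on the soft ECM than in normal culture, as deposited and after quantile normalization. Dotted lines give the percent of all 9114 bright genes (5.31% lower and 0.592% higher as deposited, 2.61% and 3.31% after quantile normalization).

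A few skeletal muscle genes were lower on the soft ECM than in normal culture, and as many were higher after quantile normalization. Of 35 bright sarcomere genes 4 fell against normal culture under both scalings, Ttn, Neb, Xirp2 and Myh1, where 5.31% and 2.61% of all bright genes were lower. As deposited 15 of the 35 had a positive and 20 a negative log2 fold change, and after quantile normalization 22 and 13 did, with medians of -0.01 and 0.10. Ttn, for titin, the spring of the sarcomere, had 1381, 1506 and 1601 in soft ECM cultures, 1922, 1895 and 979.9 in stiff ECM cultures and 3567, 3651 and 3972 in normal cultures. Neb, for nebulin, which sets the length of thin filaments, had 1457, 1972 and 1729.9 in soft ECM cultures, 2211, 2008 and 1704 in stiff ECM cultures and 3129, 3829 and 3689 in normal cultures (log2 fold change -1.05, SE 0.14, adjusted p = 0.0059). Both gels lay under all normal samples in both genes, with a log2 fold change of -1.32 for Ttn (SE 0.22, adjusted p = 0.013). Xirp2, for an actin-binding protein of muscle attachment, fell by 1.36, and Myh1, for a fast myosin heavy chain, by 0.71. After quantile normalization Csrp3, Myl2, Myl4 and Tnni1 passed as higher, where 3.31% of all bright genes did. Csrp3, for muscle LIM protein, had 6145, 5785 and 5849.8 in soft ECM cultures, 2777, 2539 and 2240.0 in stiff ECM cultures and 4549, 5258 and 5653 in normal cultures. The soft ECM lay just above normal culture (0.34 after quantile normalization, adjusted p = 0.042, and adjusted p = 0.33 as deposited) and far above the stiff ECM (soft minus stiff 1.24, SE 0.11, adjusted p = 0.0034). Neb kept its calls in every leave-out. The count of 4 became 4, 3 and 3 when soft ECM replicate 1, 2 or 3 was left out and 5, 1 and 4 when normal replicate 1, 2 or 3 was. After quantile normalization the 4 lower became 1 to 4, with 1 without normal replicate 1 or 2, and the 4 higher became 1 or 2. Of these Tnni1 kept its call in every case, Csrp3 lost it in all 6 (adjusted p up to 0.12) and Myl2 in 5.

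Against the stiff ECM 13 of the same 35 genes were higher on the soft ECM, where 0.823% of all bright genes were. The median log2 difference of the 35 was 0.51 for soft minus stiff and -0.01 for soft ECM minus normal, 2 comparisons that share the soft ECM samples. Myl2, for the slow and cardiac regulatory light chain of myosin, had 8469, 6905 and 7179.6 in soft ECM cultures, 3857, 3499 and 3894 in stiff ECM cultures and 4637, 6276 and 6100.1 in normal cultures (soft minus stiff 1.00, SE 0.13, adjusted p = 0.012). Tnni1, for slow troponin I, had 42788, 41500.0 and 43262 in soft ECM cultures, 26948, 25466 and 23412 in stiff ECM cultures and 29899, 35751 and 38210.2 in normal cultures (soft minus stiff 0.75, SE 0.10, adjusted p = 0.012). In these genes the soft ECM samples were highest and the stiff ECM samples lowest. The 13 became 22 after quantile normalization, and 6, 8 and 8 without soft ECM replicates 1, 2 and 3, and 9 and 7 without stiff ECM replicates 1 and 3. All 13 calls ended without stiff ECM replicate 2 (adjusted p = 0.06 for Csrp3, 0.096 for Myl2 and 0.098 for Tnni1).

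**Figure D5:**
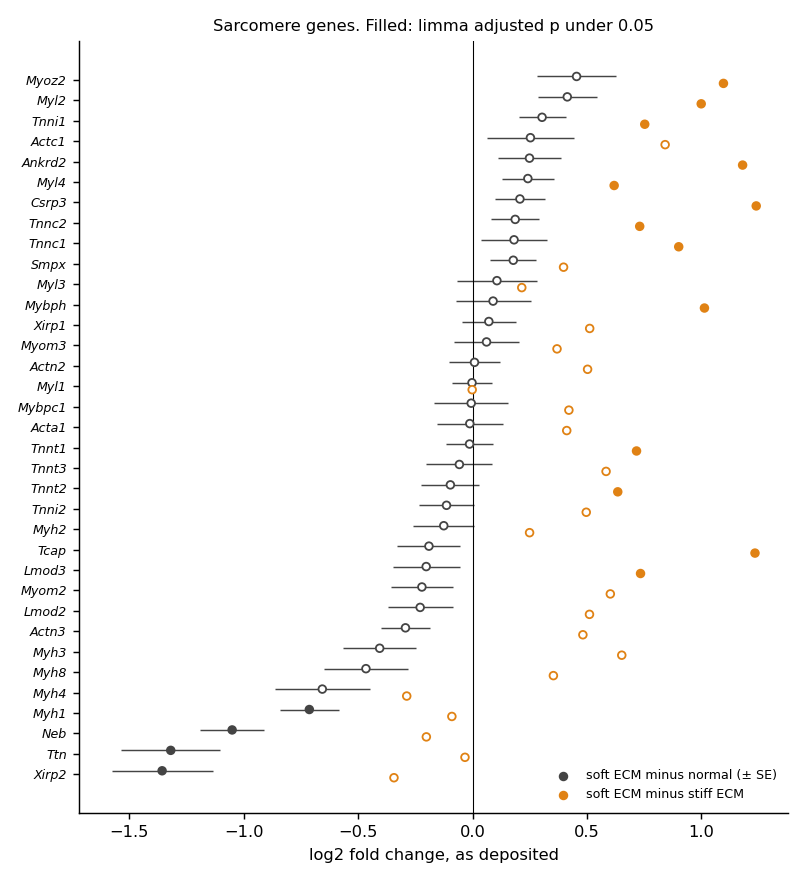
Log2 difference of the 35 bright sarcomere genes between the soft ECM and normal culture (with its SE) and between the soft and the stiff ECM (no SE drawn), from the deposited values. Ttn, Neb, Xirp2 and Myh1 lie below 0 against normal culture, and 13 genes passed as higher against the stiff ECM, where the median is 0.51.

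Wnt genes, which the study followed between its gels, gave few calls between the soft ECM and normal culture. Wnt1, a ligand that acts through beta-catenin, had 276, 304 and 332 in soft ECM cultures, 354, 379.8 and 383 in stiff ECM cultures and 229, 357 and 359.9 in normal cultures. The soft ECM samples lay within the range of the normal samples (log2 fold change -0.03, SE 0.18, adjusted p = 0.95), and the direction turned after quantile normalization (0.08). All soft ECM samples lay below the stiff ECM samples, but limma did not call Wnt1 between the gels (adjusted p = 0.34). Ctnnb1, which encodes beta-catenin, had 21976, 20172 and 20506 in soft ECM cultures, 22918, 22074 and 22444 in stiff ECM cultures and 19914, 21074 and 21372 in normal cultures, with a soft ECM minus normal log2 fold change of 0.01 (SE 0.08). Limma did not call it between the gels either (adjusted p = 0.43). Axin2, for a feedback inhibitor and target of the pathway, had 254, 281 and 291 in soft ECM cultures, 429.7, 397 and 369 in stiff ECM cultures and 254, 266 and 352 in normal cultures. The soft ECM lay with normal culture and below the stiff ECM (soft ECM minus normal log2 fold change -0.07, SE 0.15, adjusted p = 0.84, soft minus stiff -0.53, SE 0.15, adjusted p = 0.086). Cd44, for the hyaluronan receptor, had 1149, 1024 and 1151 on the soft ECM and 1342, 1246 and 1490.2 in normal culture and an adjusted p of 0.19. None of the 4 bright Wnt ligands passed in limma (1 lower at unadjusted p under 0.05, and 0 by the methods' t-test before or after adjustment). Sfrp2, for a secreted antagonist, was higher after quantile normalization (0.46, adjusted p = 0.032) and not as deposited (0.093), and the call ended in 5 of the 6 leave-outs, all but soft ECM replicate 3 (adjusted p up to 0.11). Ryk, for a Wnt receptor, was lower as deposited only (log2 fold change -0.38, SE 0.09, adjusted p = 0.049). Of 12 bright target genes Vegfa and Myc were lower as deposited, and after quantile normalization limma called 0 (1 higher and 3 lower at unadjusted p under 0.05). Myc, for a transcription factor of cell growth, had 5512, 4553 and 3784 in soft ECM cultures, 4368, 4638 and 4645 in stiff ECM cultures and 6628, 7130.2 and 7407 in normal cultures (log2 fold change -0.63, SE 0.13, adjusted p = 0.024). The deposited calls of Vegfa and Myc ended without soft ECM replicate 3, normal replicate 2 or normal replicate 3, that of Vegfa also without soft ECM replicate 1 and that of Myc without soft ECM replicate 2. Leaving out any 1 sample ended the deposited call of Ryk.

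Some growth factor genes were lower on the soft ECM, where 5.31% of all bright genes were as deposited and 2.61% after quantile normalization. Of 21 bright BMP and TGF-beta response genes 3 were lower as deposited and 2 after quantile normalization, Tgfb3 among them under both scalings. Of 13 bright genes of the IGF axis, which feeds matrix synthesis in cartilage, 2 fell. Igf1r, for the receptor, had 4366, 4309 and 4458 on the soft ECM and 5827, 6170.3 and 6504 in normal culture (log2 fold change -0.49, SE 0.09, adjusted p = 0.018), and Igfbp6, for a binding protein that prefers IGF-II, had 1711, 1699 and 2020.2 in soft ECM cultures, 2670.4, 2388 and 2467 in stiff ECM cultures and 2634, 2736 and 3000.5 in normal cultures (log2 fold change -0.63, SE 0.10, adjusted p = 0.013). The deposited call of Igf1r ended without soft ECM replicate 2 or 3 or normal replicate 2, and that of Igfbp6 without normal replicate 2. After quantile normalization both calls ended without soft ECM replicate 1 or normal replicate 1 or 2, and that of Igf1r without soft ECM replicate 3 too (adjusted p up to 0.088 for Igf1r and 0.072 for Igfbp6). Tgfb3, a TGF-beta ligand that promotes chondrogenesis, had 2364, 2122 and 2565 in soft ECM cultures, 2079, 1892 and 1759 in stiff ECM cultures and 3451, 3385 and 4101 in normal cultures and fell (log2 fold change -0.63, SE 0.11, adjusted p = 0.018), with an adjusted p of up to 0.059 without soft ECM replicate 2 or normal replicate 2. Gdf5, a ligand of joint formation, was lower as deposited (log2 fold change -0.40, SE 0.09, adjusted p = 0.042) and not after quantile normalization (adjusted p = 0.21), and its deposited call ended without any 1 of the 6 samples.

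The 15 largest rises among bright genes that passed under both scalings with groups apart were led by Wfdc21, for a small secreted protein of the WAP family. It had 1174, 1014 and 824 in soft ECM cultures, 982, 1017 and 936 in stiff ECM cultures and 251, 302 and 409 in normal cultures. The gels lay together at 3.16-fold the normal level for the soft ECM (log2 fold change 1.66, SE 0.18, adjusted p = 0.0034). Ccl3, Egr1 and Mcm3, given above, were in this set. Coch, for cochlin, a matrix protein known from the inner ear, had 594, 511 and 511 in soft ECM cultures, 480.0, 562 and 654 in stiff ECM cultures and 158, 303 and 329 in normal cultures (log2 fold change 1.10, SE 0.24, adjusted p = 0.036). Gdf10, for a BMP family ligand, rose by 1.08, Agtr2, for an angiotensin receptor, by 1.00, and Arg2, for the mitochondrial arginase, by 0.99. G0s2, for an inhibitor of fat hydrolysis, had 932, 1146 and 1131 in soft ECM cultures, 724, 618 and 615 in stiff ECM cultures and 464, 505 and 703 in normal cultures, where the soft ECM stood alone (log2 fold change 0.96, SE 0.16, adjusted p = 0.014). Ahrr, for a repressor of the aryl hydrocarbon receptor, rose by 0.95, and Hvcn1, for a proton channel, by 0.93. The others were Spag7 (1.24), Amigo2 (1.08), the histone gene H2ac23 (1.08) and the kininogen gene Kng1 (0.93). Wfdc21, Ccl3, Egr1 and Mcm3 kept their calls under both scalings in every leave-out. As deposited the other 11 lost theirs without 1 to 4 of the 6 samples, 10 of them without normal replicate 2, and Kng1 without soft ECM replicate 3. After quantile normalization 8 of the 11 kept theirs, and Spag7 lost it in 4 cases, Coch without soft ECM replicate 1 and H2ac23 without normal replicate 2.

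The 15 largest falls were led by Angptl7, for an angiopoietin-like protein secreted by connective tissue, which had 178, 254 and 174 in soft ECM cultures, 215, 201 and 242 in stiff ECM cultures and 739, 762 and 793 in normal cultures. The groups were far apart, and normal culture exceeded the soft ECM 3.84-fold (log2 fold change -1.94, SE 0.16, adjusted p = 0.001). Krt19, for a keratin of simple epithelia, had 257, 307 and 256 in soft ECM cultures, 682, 614 and 662 in stiff ECM cultures and 1335, 747 and 745 in normal cultures. Here the soft ECM lay below the stiff ECM as well (soft minus stiff -1.26, SE 0.20, adjusted p = 0.019, and up to 0.1 without each gel sample but soft ECM replicate 2). Cthrc1, for a secreted protein of matrix remodelling, had 2662, 3481 and 2612 in soft ECM cultures, 3087, 3130.4 and 3307 in stiff ECM cultures and 6419.9, 7289 and 6452 in normal cultures, and Ptn, for pleiotrophin, a growth factor of cartilage, had 2704, 2399 and 2482 in soft ECM cultures, 2786, 2459 and 2705 in stiff ECM cultures and 4509, 5816 and 6395 in normal cultures. Both gels stood under normal culture in both genes, with log2 fold changes of -1.21 and -1.13. F5, for coagulation factor V, fell by 1.11, and Ppbp, for a platelet-type chemokine, fell by 1.22 and was below the stiff ECM too (soft minus stiff -0.94, SE 0.18, adjusted p = 0.034, a call that ended without any 1 of the 6 gel samples, with an adjusted p of up to 0.16). Arg1, for the cytosolic arginase, fell by 1.10 while Arg2 rose. The others outside the lists above were Tgm6 (-1.49), for a transglutaminase, and the nuclear RNA Malat1 (-1.24). Angptl7, Krt19, Cthrc1, Ptn and F5 kept their calls under both scalings in every leave-out. The deposited call of Tgm6 ended without normal replicate 2 or 3, that of Arg1 without soft ECM replicate 1 or 2 or normal replicate 2 or 3, and that of Malat1 without any 1 of the 6 samples. After quantile normalization the calls of Tgm6, Arg1 and Malat1 ended in 4, 5 and 5 of the 6 cases, and that of Ppbp without soft ECM replicate 1 or 3 or normal replicate 2 (adjusted p up to 0.072).

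In the whole set 7 higher and 37 lower bright genes were called under both scalings and in every one of the 6 leave-outs. The higher ones were Apoe, Aunip, Cck, Ccl3, Egr1, Mcm3 and Wfdc21, of which the first 3 were named after their values were seen. Apoe, for apolipoprotein E, had 6973, 6712 and 6311 in soft ECM cultures, 5138, 4844 and 4930.4 in stiff ECM cultures and 4143, 4404 and 4473 in normal cultures (log2 fold change 0.62, SE 0.08, adjusted p = 0.0059), and Cck, for the peptide cholecystokinin, had 13371, 11269.6 and 13331 on the soft ECM and 6962, 6245 and 8286 in normal culture (log2 fold change 0.83, SE 0.13, adjusted p = 0.0099). Among the 37 lower genes, also named after seeing them, Hspg2, for perlecan, the heparan sulfate proteoglycan around chondrocytes, had 3061, 2927 and 2882 in soft ECM cultures, 4575, 4117 and 4007 in stiff ECM cultures and 5699, 5972 and 6310.1 in normal cultures. The 3 groups stood in the order soft ECM, stiff ECM, normal with no overlap (log2 fold change -1.02, SE 0.09, adjusted p = 0.0011). Palld, for palladin of actin bundles, had 2589, 3092 and 2867 on the soft ECM and 5819.6, 5386 and 5489 in normal culture, Fstl3, for a binder of activin, had 2528, 2578 and 2330.1 on the soft ECM and 5064, 4612 and 4684 in normal culture, and Porcn, for the enzyme that lipidates Wnt ligands, had 2741, 2616 and 2661 in soft ECM cultures, 2599, 2117 and 2195 in stiff ECM cultures and 4380.5, 4039 and 4468 in normal cultures. Their log2 fold changes were -0.97, -0.95 and -0.68.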

How the data were processed

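RNA was labelled with Cy5 by the authors, and each sample was read on 2 arrays (Phalanx Mouse OneArray v2), which were scaled by their median in Rosetta Resolver after removal of flagged spots and then averaged. The deposited values are background-subtracted intensities of 26423 probes on a linear scale. Software versions are not given in the sources used here. Of the probes 21876 had 1 gene symbol, 4547 none and 0 several.

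Here log2 of the intensities was taken for the 24942 probes above 0 in all 9 samples (1481, 5.6%, were left out), and 3 group means were fitted to all 9 samples in R 4.3.3 with limma 3.58.1 (lmFit, eBayes with an intensity trend). Adjusted p-values (Benjamini-Hochberg, all 24942 probes) were called at 0.05. The same fit was run after quantile normalization. A gene is its brightest probe. The 3 samples a group, each from 2 arrays, limit the precision. The fit was tested on simulated data. Replicates agreed at Pearson r of 0.9825 to 0.9863 (soft ECM) and 0.9878 to 0.9924 (normal) over bright probes.

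The rule for naming genes took the 15 largest rises and falls among bright genes that passed under both scalings with groups apart. It added up to 4 members of each list by smallest p, and genes of proteins the paper measured. For some lists more members are named. Of the genes set for the last part, Wnt3a, Gsk3b, Ptk2, Akt1, Itga1 and Itga10 are not given here, and Col1a1 appears only as a marker. The members and the 58 lists were chosen with earlier results of these data known. The methods' t-test is Student's t-test with equal variances. The error model of that software was not used. Leave-outs drop 1 of the 6 soft ECM and normal samples. Upstream windows came from RefSeq (GRCm38.p6). Python 3.11.15 and matplotlib 3.10.9 drew the figures. Other alternatives were median centring, cyclic loess, no trend, sample weights, 2 groups only, a replicate block, bright probes only, an offset (25th percentile), a floor (5th percentile) and 1 probe per gene. Gene by gene sample weights and the soft minus stiff counts and calls under other settings were chosen after seeing the data.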

Additional observations from a re-analysis of the deposited data

How the results depend on the processing

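Direction held for most named genes and the number of calls did not. Over all tested probes 123 were higher and 801 lower. The higher count was 542 after quantile normalization, 333 after median centring, 606 after cyclic loess, 52 with no intensity trend, 76 with the soft ECM and normal samples only, 4 with sample weights, 902 with gene by gene weights, 46 with a replicate block, 283 with the block and quantile normalization, 0 by the methods' t-test (3926 at unadjusted p under 0.05) and 21 to 247 with 1 sample left out. The lower count in those settings that moved was 331 after median centring, 222 with no trend, 464 with 2 groups, 15 with weights, 3064 with gene by gene weights, 262 with the replicate block, 292 with the block and quantile normalization, 6 by the methods' t-test and 117 to 1041 with 1 sample left out. Among bright probes (62 higher, 578 lower) the higher count was 335 after quantile normalization, 136 after centring, 360 after loess, 100 with bright probes only in the fit, 15 with no trend, 38 with 2 groups, 2 with weights, 306 with gene by gene weights, 22 with the replicate block, 180 with the block and quantile normalization, 0 by the methods' t-test and 11 to 75 with 1 sample left out. The lower count was 286, 170, 333, 112 (no trend), 351, 12, 1893, 190, 153, 5 and 89 to 607, for the same settings without the fit on bright probes only. After quantile normalization leaving out 1 sample gave 118 to 350 higher and 87 to 479 lower over all probes (542 and 538 with all samples), and 85 to 208 higher and 56 to 277 lower among bright probes (335 and 286). Fewest calls came without normal replicate 2. No source says that replicate numbers pair the samples. As deposited, deviations from the group mean correlated at 0.06, 0.19 and 0.44 for same-numbered samples and at -0.31 to 0.14 for others. Whether same-numbered samples share an effect was not tested, and the block is a number only. The default sample weights did not converge and gave normal replicate 2 a weight of 0.0254, while the gene by gene weights gave it 3.95.

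Between the gels the bright genes called, 75 higher and 183 lower, became 381 and 307 after quantile normalization and 322 and 275 after loess. They became 16, 26 and 18 higher and 36, 48 and 26 lower without soft ECM replicates 1, 2 and 3, 32 and 20 higher and 47 and 46 lower without stiff ECM replicates 1 and 3, and all these calls ended without stiff ECM replicate 2. The 13 sarcomere genes higher against the stiff ECM became 22 after quantile normalization, 21 after loess and 0 to 9 with 1 sample left out.

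The direction turned for genes near 0. Sox9 (-0.13) had 0.02 after quantile normalization, loess, or the replicate block with quantile normalization, where leaving out 1 sample gave -0.03 to -0.01 in the cases that turned. Ctnnb1 (0.01) had -0.01 with sample weights, -0.02 gene by gene and -0.03 to 0.03 with 1 sample left out. Wnt1 (-0.03) had 0.08 after quantile normalization alone or with the replicate block, 0.07 after centring, 0.09 after loess, 0.02 with sample weights and -0.24 to 0.08 with 1 sample left out, and -0.02 in a leave-out after quantile normalization. Axin2 (-0.07) had 0.04 after quantile normalization alone or with the block, 0.02 after centring, 0.05 after loess, 0.03 gene by gene, -0.16 to 0.08 with 1 sample left out and -0.01 in a leave-out after quantile normalization. The cause was not tested.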

Other observations

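Genes of energy metabolism and translation moved little, and their small differences depended on the scaling. Of 60 bright mitochondrial ribosomal protein genes limma called 0 as deposited (4 higher and 1 lower at unadjusted p under 0.05) and 4 as higher after quantile normalization, with medians of 0.06 and 0.21 and 56 of 60 positive under the second scaling. Of 57 bright oxidative phosphorylation genes it called 0 as deposited (2 higher at unadjusted p under 0.05) and 4 as higher after quantile normalization, with medians of 0.01 and 0.12. Among all bright genes 3.31% were higher after quantile normalization. The t-test of the methods gave 0 adjusted calls in both groups of genes. Cox8b, for a muscle form of a cytochrome c oxidase subunit and listed with the muscle energy genes, had 5197, 4708 and 5596 in soft ECM cultures, 3230.1, 3076 and 2927 in stiff ECM cultures and 3671, 3679.9 and 4242 in normal cultures and rose under both scalings (log2 fold change 0.42, SE 0.10, adjusted p = 0.047), with the deposited call ending without any 1 soft ECM sample or normal replicate 1 or 2. Single genes of other groups that rose were Gla, for a lysosomal galactosidase (0.45), and Gsta4, for a glutathione transferase (0.44), and their deposited calls ended without 5 and 6 of the 6 samples.

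The fold change of a bright gene ran with the length of genome it spans. In 4 equal groups of genes from short to long, with upper bounds of 9.75, 23, 52.9 and 2270 kb in the reference table, the median log2 fold change was -0.08, -0.12, -0.14 and -0.20 as deposited and 0.06, 0.03, 0.00 and -0.04 after quantile normalization. After quantile normalization 2.15%, 1.89%, 2.37% and 4.04% of the genes in these groups were lower and 4.74%, 4.13%, 2.64% and 1.76% higher. For soft minus stiff after quantile normalization the medians of the same groups were 0.09, 0.05, -0.01 and -0.06, so the trend was not particular to normal culture. These are descriptions across genes, which are not replicates, and the comparisons share the soft ECM samples.

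Among the 37 genes called lower under both scalings and in every leave-out were also Anxa8, for an annexin (7062, 7221 and 7715 on the soft ECM and 14523, 13565 and 14372 in normal culture, log2 fold change -0.95), Fam20a, for a secreted pseudokinase of mineralized tissue (-1.05), and Cspg4, for the proteoglycan NG2 (-0.85). Aunip, for a partner of Aurora A and a member of no list, was among the 7 higher ones (568, 467 and 469.7 on the soft ECM and 231, 262 and 303 in normal culture, log2 fold change 0.92). They were named after their values were seen.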
